A study of Mus musculus with 4 samples.

Results

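Sperm swim with a flagellum whose core, the axoneme, is a ring of doublet microtubules around a central pair. Dynein arms on the doublets are the motors, radial spokes carry signals from the central pair to the arms, and tektins are filament proteins inside the doublet wall. Intraflagellar transport (IFT) moves building blocks along the growing axoneme, and it also builds the non-motile primary cilium of most somatic cells. In the mouse testis the axoneme grows out in spermatids, the haploid cells formed by meiosis, while RNA for it can be made earlier, in spermatocytes.

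The genes described here were chosen by name: entries that begin with DNAH, DNAI, DNAL, DNAAF, RSPH, TEKT or IFT, followed by a number. The rule found 64 of 112302 entries. RNA came from BALB/C mouse testis bought from a supplier, and each of 4 stages has 1 library: fetal testis of embryonic days 14 (E14) and 18 (E18), and testis aged 3 weeks and 6 months. The labels give no further genotype or treatment, nor how many animals each RNA came from. With 1 library per stage there is no replicate check, so no p-value is given and "higher" or "lower" describes these libraries.

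Values are RPKM, reads divided by model length and by library size, so levels can be compared between genes per length. Of the 64 entries, 48 carry a current gene symbol and stand for 48 genes. A further 14 are older symbols of those genes with a gene model of their own, so their reads may overlap. DNAHC3 is an older symbol of more than 1 gene, and RSPH10B2 matched no annotated mouse gene. The entries comprise 28 dynein heavy chains (DNAH, 15 genes), 2 intermediate chains (DNAI), 5 light chains (DNAL, 3 genes), 3 assembly factors (DNAAF), 8 radial spoke entries (RSPH, 7 genes), 5 tektins (TEKT) and 13 IFT subunits. At least 1 RPKM in at least 1 library was reached by 57 entries and 44 genes. DNAH5, DNAH9, DNAH11, their older entries DNAHC5, DNAHC9 and DNAHC11, and RSPH4A stayed below. The highest value among those 7 was 0.398 RPKM, and the lowest maximum among the 57 was 1.57 RPKM.

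The RPKM values rested on 33952471 (3 weeks) to 38903334 (E14) reads per library, recovered from the steps between low values. Marker sums follow in the order E14, E18, 3 weeks, 6 months. The summed RPKM of 12 spermatocyte markers was 1.77, 6.56, 512 and 245. That of 12 round spermatid markers was 1.27, 1.37, 160 and 812, and that of 12 elongating spermatid markers 4.13, 4.83, 41.5 and 7383. For 12 Sertoli cell markers it was 12.6, 102, 177 and 147, and for 8 Leydig cell markers 8.46, 139, 71.9 and 579. The Sertoli and Leydig sums were lowest at E14, and their part in the results was not tested. Of 13 markers of multiciliated epithelium, such as that of the efferent ducts, 12 were below 1 RPKM at E14 and 12 at E18, then 9 at 3 weeks and 8 at 6 months, and the list summed to 8.83, 4.76, 15.6 and 47.4 RPKM. Of its 5 measured markers 3 were called higher, by the 2-fold limit defined below, at 3 weeks over E18 and 3 at 6 months over 3 weeks. The shares of all measured entries called higher were 32.0% and 9.73%, and 0 of these markers were called lower. Tppp3, which made up most of the first sum, had 7.72, 3.46, 2.28 and 3.38 RPKM in the same order, so it fell up to 3 weeks. Ccdc67 had 0.132 RPKM at E18, 3.41 at 3 weeks and 18.3 at 6 months, and Foxj1 had 0.312, 4.31 and 17.3. Mcidas, which switches on multiciliation, was at 0 in the first 3 libraries and at 0.0237 RPKM at 6 months. Of 10 epididymis markers, Crisp1 had 0.206 RPKM at E18, 41.5 at 3 weeks and 0.0197 at 6 months, and Spink8 had 0.993, 22.0 and 0.739. Cst8 had the opposite order after birth, with 1.34, 1.07 and 63.2 RPKM at these stages. The sum of this list was 0.165, 2.70, 68.3 and 66.4 RPKM at the 4 stages, and the part of either epithelium in the members' values was not tested.

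Dynein heavy chain genes were low before birth and higher afterwards, while most IFT genes had a level of at least 1 RPKM from E14 on. All 15 DNAH genes were below 0.5 RPKM in both fetal libraries. The median DNAH gene had 0.0440 RPKM at E14 and 0.0971 at E18, then 6.13 at 3 weeks and 5.09 at 6 months. The median IFT gene had 1.33 RPKM at E14 and 1.56 at E18, then 8.15 at 3 weeks and 7.28 at 6 months. In fetal testis 9 of 13 IFT genes reached 1 RPKM in each library, against 0 of 15 DNAH and 0 of 2 DNAI genes. Since these are bulk samples, fewer cells of a type and less RNA per cell cannot be told apart.

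**Figure D1:**
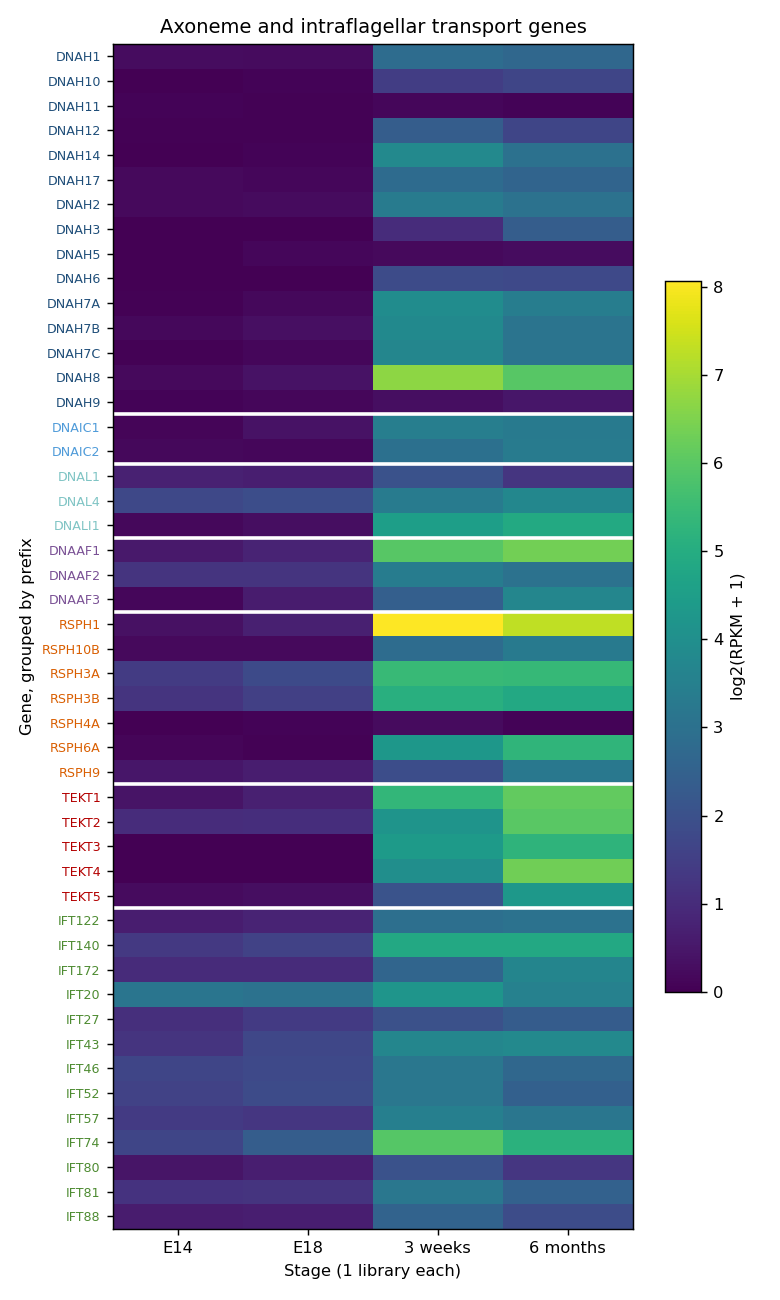
Level of the 48 genes (rows, grouped by prefix and separated by white lines) in the 4 libraries (columns), as log2(RPKM + 1). Both fetal columns are dark except for IFT genes and a few others such as DNAL4, and RSPH1 and DNAH8 are the brightest at 3 weeks. DNAH5, DNAH9, DNAH11 and RSPH4A stay dark at all 4 stages.

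Counted once per gene, the 48 genes took 118 reads per 1000000 at E14 (counting interval 115 to 122), 150 at E18 (146 to 154), 4068 at 3 weeks (4047 to 4090) and 3497 at 6 months (3478 to 3516). These and all later intervals are exact at 95% and cover counting error only. The make-up also differed. IFT genes held 65.2% of these reads at E14 and 62.4% at E18, then 16.9% at 3 weeks and 16.7% at 6 months. DNAH genes held 12.1%, 14.9%, 56.7% and 44.2% at the same stages, and DNAH8 by itself held 36.6% at 3 weeks and 25.7% at 6 months. The tektin share was 2.44%, 2.32%, 3.95% and 12.8%.

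**Figure D2:**
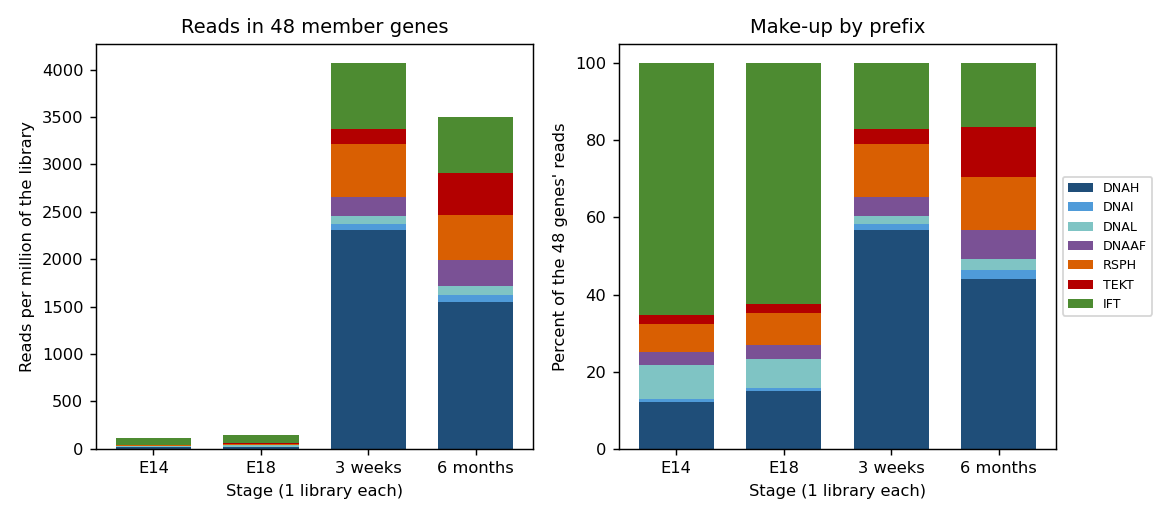
Left, reads per 1000000 of the library that fell in the 48 genes, stacked by prefix, at each stage. Right, the same reads as a percent of the 48 genes' reads. IFT genes fill most of both fetal bars, DNAH genes hold 56.7% at 3 weeks, and the tektin band is widest at 6 months (12.8%).

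E18 against E14 addresses change within fetal life. Differences are the later minus the earlier log2(RPKM + 1), and a size of at least 1, 2-fold on that scale, is called. Of the 57 measured entries 0 were called higher and 0 lower, beside 2.17% and 1.34% of all 42964 measured entries and 3.54% and 1.63% of 12661 protein-coding symbols. An entry below 1 RPKM in both libraries cannot be called on this scale. Of all 64 entries 15 reached 1 RPKM at E14 and 15 at E18, so for most members the absence of a call was fixed beforehand. The median difference was 0.07 over members and 0.03 over all entries. Without the pseudocount, the counting interval of the fold lay above 1 for 18 of 44 genes and below 1 for 1, DNAH17, and held 1 for 25.

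Several dynein genes were among those 18, and the next 3 rest on few reads. DNAH10, a heavy chain of the inner arm, had 32 reads at E18 and 6 at E14, a fold of 6.06 (2.50 to 17.7). DNAAF3, which helps assemble dynein arms in the cytoplasm before they enter the axoneme, had 0.525 RPKM at E18 and 0.104 at E14, a fold of 5.05 (2.41 to 11.8). DNAIC1, an intermediate chain of the outer arm, had 0.305 and 0.0739 RPKM at the same stages, a fold of 4.12 (1.84 to 10.4). Each of these stayed below 1 RPKM at E18. The IFT subunit IFT74, which forms a tubulin-binding pair with IFT81, was the member with the largest difference on the log2(RPKM + 1) scale, 0.70, with 4.20 RPKM at E18 and 2.20 at E14. DNAH5, below the filter, had 59 reads at E18 and 3 at E14, a fold of 22.4 (7.28 to 111), at levels of 0.110 and 0.00493 RPKM.

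Between E18 and 3 weeks, the interval in which germ cells enter meiosis, the genes rose in level nearly as a block. Of 57 measured entries 55 were called higher at 3 weeks (96.5%) and 0 lower, beside 32.0% and 10.5% of all measured entries and 24.1% and 13.2% of protein-coding symbols. By gene the count was 43 of 44. Since 15 of 64 entries reached 1 RPKM at E18, most passed the filter only through postnatal libraries. Without the filter the count was 55 of 64, beside 12.2% of all 112302 entries. The median difference was 2.48 over members, 0.46 over all entries and 0.23 over protein-coding symbols. The 2 entries not called were IFT27 (0.64) and DNAHC3 (0.61), and every measured gene had a counting interval of the fold above 1.

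Among the heavy chains, the ATPase subunits that pull on neighbouring doublets, all 12 measured genes were called higher. These 12 passed the 1 RPKM filter only through postnatal libraries, so for them a call was nearly fixed beforehand. DNAH5, DNAH9 and DNAH11 did not pass it and had differences of 0.05, 0.15 and 0.08. DNAH8, an outer-arm chain of the sperm flagellum on chr17:30624354-30877365 (GRCm38), had 0.143 RPKM at E14 and 0.321 at E18, then 102 at 3 weeks and 61.5 at 6 months. Its fold at 3 weeks over E18 was 319 (273 to 374). No other DNAH gene came near it: the next was DNAH7A at 14.1 RPKM at 3 weeks. DNAH7A, DNAH7B and DNAH7C, near-identical inner-arm chains on chromosome 1, had a like course. DNAH7A had 0.0440 RPKM at E14 and 0.129 at E18, then 14.1 at 3 weeks and 9.76 at 6 months. DNAH7B had 0.140, 0.266, 13.1 and 7.59 RPKM, and DNAH7C had 0.0420, 0.0955, 12.1 and 7.53. The DNAH7C values rest on a gene model of 612 bases, against 12603 annotated exonic bases. How reads were split among these copies is not given in the sources used here, so their levels are uncertain. DNAH14 had 0.0215, 0.0610, 12.9 and 7.03 RPKM at the 4 stages over a gene model of 2393 bases, against 16235 annotated exonic bases. The fetal values of these genes rest on few reads, 1 and 2 for DNAH7C and 2 and 5 for DNAH14 at E14 and E18.

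The remaining heavy chains were lower in level. DNAH2, an inner-arm chain, had 0.149 RPKM at E14 and 0.180 at E18, then 9.20 at 3 weeks and 7.30 at 6 months. DNAH1, also of the inner arm, had 0.192, 0.191, 6.19 and 5.42 RPKM at these stages, and DNAH17 of the outer arm had 0.158, 0.106, 6.13 and 5.09. Both postnatal libraries lay far above both fetal ones in each case. DNAH12 (4.19 RPKM at 3 weeks), DNAH6 (2.59), DNAH10 (1.77) and DNAH3 (1.03) followed. The difference of DNAH3 was 1.00, at the limit of a call.

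Intermediate and light chains split by level. DNAIC1 had 0.0739 RPKM at E14 and 0.305 at E18, then 9.97 at 3 weeks and 8.78 at 6 months. DNAIC2, its partner in the outer arm, had 0.120, 0.0994, 6.95 and 9.17 RPKM. DNALI1, a light intermediate chain of the inner arm, had 0.121, 0.219, 21.9 and 29.1 RPKM, a fold of 99.8 at 3 weeks over E18 (61.3 to 175). These 3 were near 0 before birth, but the other light chains were not. DNAL4 had 2.38 RPKM at E14 and 2.73 at E18, then 9.18 at 3 weeks and 12.3 at 6 months, a fold of 3.36 at 3 weeks over E18 (2.88 to 3.92). DNAL1, which binds an outer-arm heavy chain, had 0.678, 0.602, 3.08 and 1.38 RPKM.

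Of the assembly factors, DNAAF1 was by far the highest after birth, with 0.465 RPKM at E14 and 0.756 at E18, then 61.6 at 3 weeks and 81.1 at 6 months. DNAAF2 had 1.33, 1.31, 9.35 and 7.20 RPKM and so was present at every stage. DNAAF3 had 0.104, 0.525, 4.46 and 11.9 RPKM. All 3 were called higher at 3 weeks.

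The radial spoke held the member with the highest level. RSPH1, a protein of the spoke head on chr17:31255019-31277383 (GRCm38), had 0.287 RPKM at E14 and 0.627 at E18, then 266 at 3 weeks and 154 at 6 months, a fold of 425 at 3 weeks over E18 (288 to 657). RSPH3A and RSPH3B, copies of a stalk protein that share reads to an unknown extent, were present before birth as well. RSPH3A had 1.66 RPKM at E14 and 2.48 at E18, then 42.4 at 3 weeks and 41.5 at 6 months, and RSPH3B had 1.32, 1.90, 33.3 and 28.2. The ratio of RSPH3A to RSPH3B was 1.25 at E14 and 1.30 at E18, then 1.27 at 3 weeks and 1.47 at 6 months. RSPH6A, a spoke-head protein of sperm, had 0.0823 RPKM at E14 and 0.0351 at E18, then 18.3 at 3 weeks and 37.8 at 6 months. It had 3 reads at E18 and 1556 at 3 weeks, a fold of 523 at 3 weeks over E18 (179 to 2538). RSPH10B had 0.149, 0.151, 6.26 and 8.81 RPKM, and the unmatched entry RSPH10B2 had 0.203, 0.198, 6.42 and 8.29. RSPH9, of the spoke head, had 0.417, 0.565, 2.72 and 8.42 RPKM.

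All 5 tektins were called higher at 3 weeks. TEKT1 had 0.344 RPKM at E14 and 0.622 at E18, then 39.5 at 3 weeks and 68.2 at 6 months. TEKT3 had 1 read at E14 and 0 at E18, then 20.0 RPKM at 3 weeks and 37.1 at 6 months. TEKT4 had the same read counts before birth, then 14.9 RPKM at 3 weeks and 78.0 at 6 months. Set against the level of 3 reads at E18, the level at 3 weeks was 399 times as high for TEKT3 and 261 times for TEKT4. The counting interval of the fold started at 324 for TEKT3 and 212 for TEKT4, with no upper end. TEKT2 was the tektin with a fetal level, with 1.03 RPKM at E14 and 1.06 at E18, then 17.02 at 3 weeks and 62.6 at 6 months. TEKT5 was the lowest after birth, with 0.171, 0.243, 3.16 and 18.7 RPKM.

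Of 13 IFT genes 12 were called higher. Their median fold at 3 weeks over E18 was 5.31 (range 1.91 to 14.3), beside 96.2 for the measured DNAH genes (range 26.7 to 319). The measured DNAH genes passed the 1 RPKM filter only through postnatal libraries, while 9 of 13 IFT genes reached it at E18. This selection widens the contrast: DNAH5, DNAH9 and DNAH11, which did not pass, had folds of 1.35, 2.26 and 2.35. IFT74 and IFT140 had the largest folds among IFT genes. IFT74 had 2.20 RPKM at E14 and 4.20 at E18, then 60.2 at 3 weeks and 34.2 at 6 months. IFT140, of the retrograde complex IFT-A, had 1.51, 2.00, 28.2 and 28.4 RPKM. IFT20, which links IFT to the Golgi, was the highest member in both fetal libraries, with 7.74 RPKM at E14 and 7.30 at E18, and had 17.6 at 3 weeks and 10.6 at 6 months. Its fold at 3 weeks over E18 was 2.41 (2.14 to 2.73). IFT27, a small GTPase, had 1.13, 1.56, 2.99 and 4.08 RPKM.

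The remaining IFT genes covered a narrower range. IFT43 of IFT-A had 1.33 RPKM at E14 and 2.26 at E18, then 11.9 at 3 weeks and 13.0 at 6 months, and IFT122 of IFT-A had 0.549, 0.735, 6.64 and 7.28. IFT57 had 1.57, 1.40, 10.1 and 7.91 RPKM, and IFT46 had 2.24, 2.46, 8.18 and 5.46; both belong to the anterograde complex IFT-B. IFT52, of the IFT-B core, had 2.03 RPKM at E14 and 2.60 at E18, then 8.15 at 3 weeks and 4.56 at 6 months. IFT81 had 1.29, 1.29, 8.15 and 4.66 RPKM, IFT172 had 0.994, 0.989, 5.25 and 11.6, and IFT80 stayed lower (3.08 at 3 weeks). Each of these were called higher at 3 weeks. IFT88, needed in the mouse to form the sperm flagellum, had 0.517 RPKM at E14 and 0.587 at E18, then 4.90 at 3 weeks and 2.64 at 6 months. In both fetal libraries IFT74 exceeded IFT81, by a ratio of 1.71 (1.40 to 2.10) at E14 and 3.24 (2.68 to 3.94) at E18, and the ratio was 7.39 at 3 weeks and 7.33 at 6 months.

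6 months against 3 weeks sets adult testis, with all stages of spermatids, against the first wave of germ cells. The members split here. Of 57 measured entries 8 were called higher at 6 months and 1 lower, beside 9.73% and 14.1% of all measured entries and 9.54% and 7.87% of protein-coding symbols. The 8 were TEKT2, TEKT4, TEKT5, RSPH6A, RSPH9, DNAH3, DNAAF3 and IFT172, each the current symbol of its gene. The entry called lower was DNAHC7A, a model of 732 bases (0.0702 RPKM at E14 and 0.0798 at E18, then 6.28 at 3 weeks and 1.79 at 6 months), while DNAH7A, over 12272 bases, had a difference of -0.49. Rescaling by the median of ratios gave 16 higher and 0 lower. Without the pseudocount, the counting interval of the fold lay above 1 for 18 of 44 genes and below 1 for 22.

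Of the 5 tektins 3 were called higher, TEKT2, TEKT4 and TEKT5, beside 9.73% of all measured entries. TEKT1 (0.77) and TEKT3 (0.86) did not reach the limit. The folds at 6 months over 3 weeks were 5.91 for TEKT5 (5.07 to 6.91), 5.22 for TEKT4 (4.84 to 5.64), 3.68 for TEKT2 (3.44 to 3.93), 1.86 for TEKT3 (1.73 to 1.99) and 1.72 for TEKT1 (1.64 to 1.82). The median difference of the 5 was 1.82, beside -0.31 over all entries and -0.22 over protein-coding symbols, and all 5 stayed above 0 under each of 3 rescalings. TEKT4, needed for sperm motility in the mouse and located at chr17:25454615-25476602 (GRCm38), had 78.0 RPKM at 6 months and 14.9 at 3 weeks. Its ratio to TEKT3, which no scaling of a library alters, was 2.10 at 6 months (2.00 to 2.21) and 0.747 at 3 weeks (0.681 to 0.818), so TEKT4 was above TEKT3 at 6 months and below it at 3 weeks.

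Among heavy chains 1 of 12 measured genes was called higher, DNAH3, and 0 lower, beside 9.73% and 14.1% of all measured entries. In sign, 10 of the 12 had a difference below 0, with a median of -0.39, beside -0.31 over all entries, and under the median of ratios 4 of 12 were below 0 with a median of 0.23. For 1086 other protein-coding genes of at least 10000 exonic bases the median difference was -0.48. DNAH8 had a fold of 0.603 (0.594 to 0.611), and DNAH12 had the lowest of the measured DNAH genes, 0.529 (0.487 to 0.575). DNAH3, an inner-arm chain, stood apart with 4.23 RPKM at 6 months and 1.03 at 3 weeks, a fold of 4.11 (3.70 to 4.57). The ratio of DNAH3 to DNAH1 was 0.780 at 6 months (0.734 to 0.829) and 0.166 at 3 weeks (0.150 to 0.184). The entry DNAHC3, which may stand for DNAH3 or DNAH12, had a fold of 3.75 (2.65 to 5.42). DNAH10 was the other DNAH gene above 0, with 2.21 RPKM at 6 months and 1.77 at 3 weeks.

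**Figure D3:**
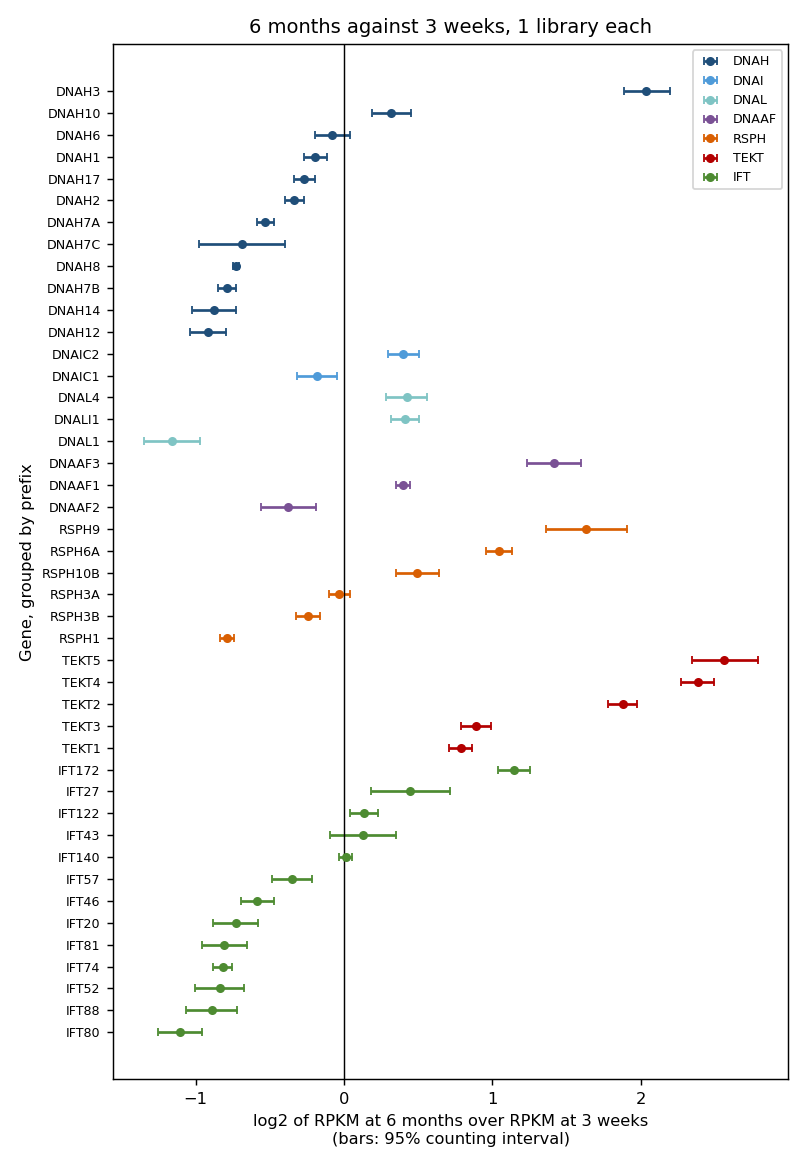
Log2 of the fold in RPKM at 6 months over 3 weeks for the 44 measured genes, sorted within each prefix, with exact 95% counting intervals as bars and no pseudocount. The 5 tektins lie right of 0 (folds of 1.72 to 5.91), while 10 of 12 DNAH genes and 8 of 13 IFT genes lie left of it.

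The spoke genes diverged. RSPH9, a spoke-head protein, had 8.42 RPKM at 6 months and 2.72 at 3 weeks, a fold of 3.09 (2.57 to 3.75). RSPH6A had a fold of 2.06 (1.94 to 2.19), and its difference of 1.00 lay at the limit. RSPH1 had 154 RPKM at 6 months and 266 at 3 weeks, a fold of 0.579 (0.561 to 0.597). Spoke-head genes thus differed in direction at the deposited scale, and relative to RSPH1 the ratio of RSPH6A was 0.245 at 6 months (0.235 to 0.255) and 0.0688 at 3 weeks (0.0652 to 0.0726). RSPH3A had a fold of 0.979 (0.932 to 1.03) and RSPH3B 0.845 (0.800 to 0.892).

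Among the remaining dynein genes, DNAAF3 had a fold of 2.67 (2.35 to 3.03) and DNAAF1 of 1.32 (1.27 to 1.36), against 0.770 (0.677 to 0.876) for DNAAF2. DNAIC2 had a fold of 1.32 (1.23 to 1.42) and DNAIC1 of 0.880 (0.802 to 0.966). DNAL4 and DNALI1 had folds of 1.34 and 1.33, and DNAL1 had 0.448 (0.393 to 0.510). Members of the outer arm therefore did not share a direction at the deposited scale.

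Among IFT genes 1 of 13 was called higher, IFT172, and 0 lower, beside 9.73% and 14.1% of all measured entries. The difference of IFT172, 1.01, lay at the limit, and after rescaling to an equal sum of RPKM 0 IFT genes were called higher. At the deposited scale the 3 IFT-A genes had folds of 1.01 for IFT140 (0.977 to 1.04), 1.09 for IFT43 (0.938 to 1.28) and 1.10 for IFT122 (1.03 to 1.17), within the range of the IFT-B genes. Of 6 genes of the IFT-B core, 5 had a fold below 1, between 0.539 (IFT88) and 0.667 (IFT46), and IFT27 had 1.36 (1.13 to 1.64). In peripheral IFT-B, IFT20 had a fold of 0.603 and IFT57 of 0.784. IFT80 had the lowest fold of all IFT genes, 0.465 (0.419 to 0.516), and IFT172, which acts where trains turn round at the tip, the highest, 2.21 (2.05 to 2.38). IFT172 had 11.6 RPKM at 6 months and 5.25 at 3 weeks, and its ratio to IFT88 was 4.39 at 6 months (3.96 to 4.87) and 1.07 at 3 weeks (0.974 to 1.18). The median IFT difference was -0.51, or 0.09 under the median of ratios.

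By stage of the highest level, 33 of 57 entries were highest at 3 weeks (57.9%) and 24 at 6 months (42.1%), beside 43.9% and 24.4% of all measured entries and 35.4% and 25.6% of protein-coding symbols. None was highest at E14 or E18 (0 of 57), beside 12.8% and 18.9% of all measured entries and 14.3% and 24.8% of protein-coding symbols. Under the median of ratios the counts were 16 and 41. By gene and at the deposited scale, DNAH had 10 highest at 3 weeks and 2 at 6 months, and IFT had 8 and 5. TEKT had 0 and 5, and RSPH had 3 and 3. The split of DNAH and IFT depended on the scale. Under the median of ratios 8 of 12 DNAH and 7 of 13 IFT genes were higher in level at 6 months than at 3 weeks.

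Several members belong to pairs in which 1 protein serves sperm and the other the cilia of airway and embryonic node, as known from human and mouse mutants. For the outer arm, DNAH8 and DNAH17 serve sperm, and DNAH5, DNAH9 and DNAH11 serve cilia. DNAH5 had 0.00493 RPKM at E14 and 0.110 at E18, then 0.149 at 3 weeks and 0.213 at 6 months. DNAH9 had 0.0645, 0.0971, 0.220 and 0.398 RPKM, and DNAH11 had 0.0604, 0.0424, 0.0998 and 0.0599. DNAH8 was 28.9 times DNAH5 at E14 (9.56 to 143), from 81 and 3 reads, 2.91 times at E18 (2.14 to 3.99), 686 times at 3 weeks (550 to 867) and 289 times at 6 months (242 to 349). DNAH17 was 2.44 times DNAH9 at E14 (1.68 to 3.62), 1.10 times at E18 (0.745 to 1.62), 27.9 times at 3 weeks (23.2 to 33.8) and 12.8 times at 6 months (11.2 to 14.7). Cilia-type chains thus stayed low in the libraries in which sperm-type chains were high.

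In the spoke head, RSPH4A, the counterpart of RSPH6A in airway cilia, had 0.00704 RPKM at E14 and 0.0480 at E18, then 0.186 at 3 weeks and 0.0612 at 6 months, from 1, 6, 23 and 8 reads. RSPH6A was 617 times RSPH4A at 6 months (313 to 1430) and 98.8 times at 3 weeks (65.6 to 156). The fetal ratios of RSPH6A to RSPH4A were 0.730 at E18 (0.118 to 3.42), from 3 and 6 reads, and 11.7 at E14 (1.57 to 518), from 8 and 1 reads. These pairs were set side by side with their values known, and they are a description.

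**Figure D4:**
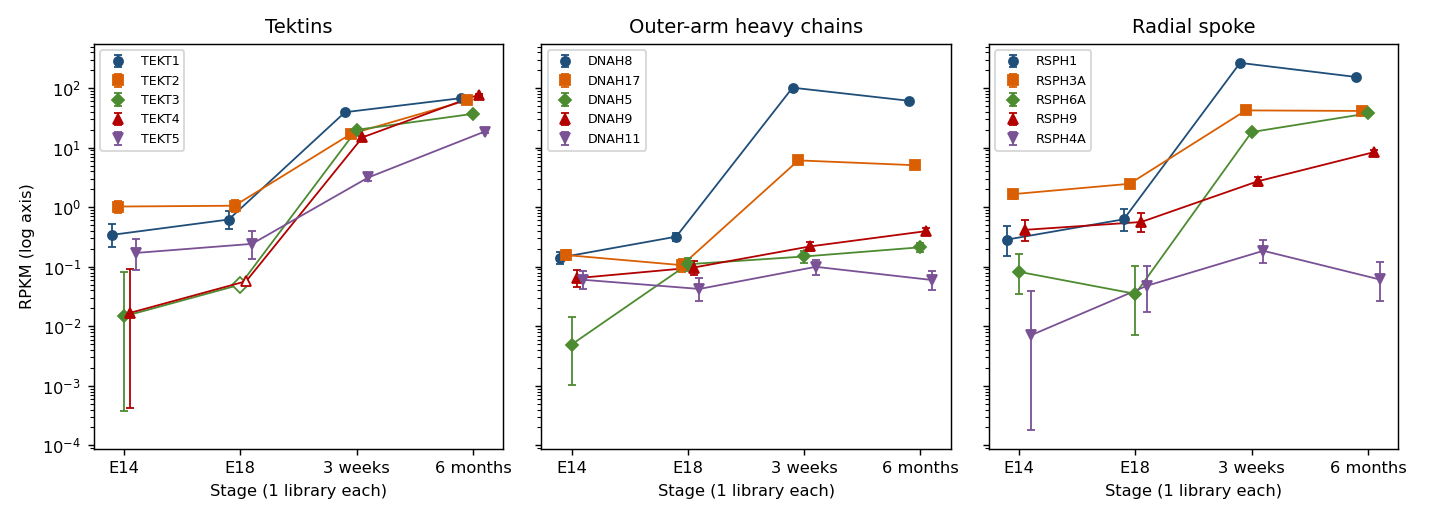
RPKM on a log axis at the 4 stages for the tektins (left), outer-arm heavy chains (middle) and radial spoke genes (right), with exact 95% counting intervals as bars. Open symbols stand at the level of 3 reads where 0 reads were recovered (TEKT3 and TEKT4 at E18). DNAH8 and DNAH17 lie above DNAH5, DNAH9 and DNAH11 in both postnatal libraries, and RSPH4A reaches at most 0.186 RPKM.

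Promoter letters were read from RefSeq sequence (GRCm38.p6), which had a promoter, 250 bases before to 50 after the start site, for 40 of the 48 genes by symbol. Missing from it were Dnaaf1, Dnah3, Ift80, Ift81, Ift122, Rsph1, Rsph4a and Rsph10b. Regulatory factor X (RFX) proteins bind an X-box in many cilium genes, forkhead factors such as FOXJ1 bind a forkhead motif, and CREM of spermatids binds the cyclic AMP response element. An X-box-like match, GTNNCC and GNAAC with NNN between them on either strand, stood in 4 of 40 genes (10.0%) and in 2.49% of 27025 genes of the table. The forkhead letters TGTTTAC stood in 2 of 40 (Dnah17 and Tekt3), against 4.05% of all, and TGACGTCA in 2 of 40 (Dnah6 and Ift57), against 2.03%. The 4 X-box-like windows, from 4 different groups, are shown, and capitals mark the match. No link between a match and a level was tested.
Dnaaf2, chr12:69198430-69198489, minus strand: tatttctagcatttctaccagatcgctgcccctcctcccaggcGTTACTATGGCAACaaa
Dnah17, chr11:118129322-118129421, minus strand: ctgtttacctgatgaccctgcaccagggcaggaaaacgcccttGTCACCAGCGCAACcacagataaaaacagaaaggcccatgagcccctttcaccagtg
Ift57, chr16:49699164-49699263, plus strand: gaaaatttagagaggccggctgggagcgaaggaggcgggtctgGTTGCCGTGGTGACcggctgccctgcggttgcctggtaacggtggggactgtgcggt
Tekt4, chr17:25471387-25471486, plus strand: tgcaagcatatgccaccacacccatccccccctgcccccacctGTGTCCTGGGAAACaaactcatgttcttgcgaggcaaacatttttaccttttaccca

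Written 5′ to 3′ along each gene, the match lay between -17 and -4 from the start site in Dnaaf2, -159 and -146 in Dnah17, -87 and -74 in Ift57 and -160 and -147 in Tekt4. The Ift57 and Dnaaf2 matches read as the motif on the opposite strand. Tekt4 held a second match just after its RefSeq start site. The Tekt4 window lay inside its GENCODE gene (chr17:25454615-25476602), and the Dnah17 window inside its own (chr11:118021723-118130634). The RefSeq start sites of both thus lay downstream of the annotated gene starts. The cyclic AMP response element of Dnah6, for comparison, lay between -175 and -168 and is marked in the same way.
Dnah6, chr6:73221756-73221849, minus strand: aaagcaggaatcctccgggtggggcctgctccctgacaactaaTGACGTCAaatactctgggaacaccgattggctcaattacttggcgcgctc

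In position, 7 of the 48 genes lay on chromosome 17 (Dnah8, Rsph1, Rsph3a, Rsph3b, Rsph9, Tekt4 and Ift140), 14.6%, beside 4.80% of protein-coding genes in GENCODE vM21. Chromosome 11 also held 7 (Dnah2, Dnah9, Dnah17, Dnaic2, Tekt1, Tekt3 and Ift20), beside 7.47%. The X chromosome held 0, beside 4.32%. Exons overlapped those of another annotated gene in 22 of the 48, as with Taf1c on the opposite strand of Dnaaf1. Whether strand was used in counting is not given in the sources used here. In 3 of them exons also overlapped on the same strand, which strand use would not resolve: Dnaaf2, Dnaaf3 (with Tnni3) and Rsph10b (with Pms2). Of the 24 measured genes with no overlap on either strand 23 were called higher at 3 weeks over E18, with a median difference of 2.23. For those with an overlap it was 20 of 20 and 2.67.

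Other genes of the axoneme, under names outside the rule, were called higher at 3 weeks over E18 in the counts that follow, each to be read beside 32.0% of all measured entries, 24.1% of protein-coding symbols and a median of 0.46 over all entries. In a list of dynein docking, assembly and nexin link genes 25 of 27 measured members were called higher at 3 weeks over E18 and 0 lower (median 2.73). It was led by Tcte3, a dynein light chain gene (224 RPKM at 3 weeks and 0.143 at E18), and Zmynd10, an assembly factor (64.7 and 0.317). Ccdc164 and Drc1, an older and a current symbol of the same gene, are both counted in this list. Central pair, spoke and doublet genes were called higher in 27 of 29 cases (median 2.85), led by Ropn1l (92.2 and 1.41 RPKM) and the central pair gene Spag6 (32.3 and 0.147). IFT genes under other names, with their motors, were higher in 20 of 22 cases (median 1.67), led by Ttc30a2 and Ttc30a1, near-identical IFT-B subunits. A list of BBSome subunits, which adapt cargo to IFT, and of genes that assemble or regulate the BBSome (Bbs10, Bbs12, Mkks, Arl6 and Lztfl1) had 10 of 13 members higher (median 1.52), with Bbs7 at 17.8 and 1.17 RPKM. Cytoplasmic dynein and shared light chains had 7 of 14 higher (median 1.21), led by Dynlrb2 (37.7 and 0.511 RPKM). Against E14, E18 had 0 members called in any of these 5 lists, beside 2.17% of all measured entries called higher and 1.34% lower. Genes below 1 RPKM in both libraries cannot be called on this scale. Of 28 docking and assembly genes 26 were below it at E14 and 25 at E18, and of 29 central pair, spoke and doublet genes 29 and 27.

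At 6 months over 3 weeks the counts in these lists stand beside 9.73% of all measured entries called higher and 14.1% called lower, with a median of -0.31. The docking and assembly list had 3 of 27 higher, with Tctex1d1 at 19.7 RPKM at 6 months and 0.172 at 3 weeks, and 4 lower, led by Ccdc39 (5.36 and 20.0), a ruler protein of the doublet. The central pair, spoke and doublet list had 8 of 29 higher, led by Morn3 (48.7 and 1.24) and the spoke chaperone Dnajb13 (71.0 and 15.0), and 1 lower, Mns1 (3.31 and 11.5). The IFT list had 2 of 22 higher, the kinesin Kif17 (14.7 and 1.17) and the kinesin adaptor Kifap3 (34.4 and 10.5), and 1 lower, Dync2li1 of the retrograde motor (4.18 and 9.54). Bbs5 was the 1 of 13 in the BBSome and regulator list called higher (7.01 and 2.55). Of 14 cytoplasmic dynein genes 1 was higher, Dynll2 (29.7 and 5.001), and 1 lower, Dynlrb1 (5.48 and 12.9).

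Regulators of cilium genes were called higher at 3 weeks over E18 in 8 of 13 measured cases, beside 32.0% of all measured entries. Mybl1, a regulator of spermatocytes, had 0.393 RPKM at E14 and 1.25 at E18, then 16.5 at 3 weeks and 5.19 at 6 months. Rfx4, of the RFX family, had 0.315, 0.0678, 5.72 and 9.21 RPKM, and Foxj1 had 0.399, 0.312, 4.31 and 17.3. At 6 months over 3 weeks 2 of the 13 were called higher, Foxj1 and Rfx1, and 2 lower, Mybl1 and Rfx7, beside 9.73% and 14.1% of all measured entries. Foxj1 was highest at 6 months and Mybl1 at 3 weeks, beside 24.4% and 43.9% of all measured entries. No link between a regulator and a member was tested. Spermatocyte markers at 6 months over 3 weeks were called lower in 8 of 12 cases and higher in 1. Round spermatid markers were called higher in 9 of 12 cases and elongating spermatid markers in 12 of 12. These counts stand beside the same 14.1% lower and 9.73% higher of all measured entries. The part of germ cell make-up in the members' values was not tested.

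Older and newer entries of a gene can rest on models of different length, and their values differed to varying degrees. DNAHC8, over 16403 bases, had 0.133 RPKM at E14 and 0.296 at E18, then 91.0 at 3 weeks and 54.8 at 6 months, beside 0.143, 0.321, 102 and 61.5 for DNAH8 over 14583 bases. DNAH5 and DNAHC5 had models of 15630 and 15616 bases and differences within 0.000122 of each other. DNAH9 and DNAHC9, at 15949 and 7960 bases, had differences within 0.00436. Close values were thus also seen with unequal models.

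Other pairs lay further apart. DNAHC7B, over 8333 bases, had 0.0648, 0.126, 6.80 and 4.39 RPKM at the 4 stages, beside 0.140, 0.266, 13.1 and 7.59 for DNAH7B over 12318 bases, with a gap of up to 0.69 between their differences. The widest gap was 0.99, for DNAH7A and DNAHC7A, whose models were 12272 and 732 bases long, and DNAH2 and DNAHC2, at 14810 and 2614 bases, had a gap of up to 0.79. Of the remaining older entries that reached 5 RPKM, DNAHC1, over 5225 bases, had 0.482, 0.431, 7.20 and 6.50 RPKM, with a gap to DNAH1 of up to 0.08. DNAHC17, over 9183 bases, had 0.165, 0.121, 5.22 and 4.54 RPKM, with a gap to DNAH17 of up to 0.21. DNALC4, over 1476 bases, had 3.74, 4.28, 14.2 and 19.4 RPKM, with a gap to DNAL4 of up to 0.08.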

How the data were processed

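Per the file headers, the deposited values are RPKM, computed by the authors for each entry. Per the submitters' processing notes, TopHat2 and mm10 were used. Which counter and annotation followed, and whether strand was used, is not given in the sources used here. Per the labels' protocols, ribosomal RNA was depleted, spike-in RNA added, polyadenylated RNA isolated and a directional kit used, while other label fields name ribosomal depletion alone. Members and gene lists were chosen with earlier results of these data known.

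Reads were recovered as the smallest whole numbers that give the deposited RPKM with 1 shared model length (relative tolerance 1e-09, lengths up to 200000), with library totals from 11441 single-exon genes; this worked for all 64 entries, though true reads could be a multiple of these, with narrower intervals. Of 48 genes, 17 had a model as long as the annotated exons (GENCODE vM21, GRCm38). Differences used a pseudocount of 1, which understates changes of low genes, over entries that reached 1 RPKM in some library. Intervals of levels (Poisson) and of folds (Clopper-Pearson) are exact at 95%. A count of 3 reads in a model of 1 kb gives 0.0771 (E14) to 0.0884 RPKM (3 weeks). By the rule for named genes, all 4 values are given for members that reach 5 RPKM and for the largest difference in each direction, and of other lists up to 2 genes per direction are named. Also tried were rescaling over 32 ribosomal protein genes, to an equal sum and by the median of ratios, a 4-fold limit, a minimum of 5 RPKM or none, and a pseudocount of 0.1. Python 3.11.15, pandas 2.3.3 and scipy 1.17.1 were used, and the steps were tested on simulated data.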

Additional observations from a re-analysis of the deposited data

How the results depend on the processing

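No paired analysis was possible because each stage has 1 library. The count called higher at 3 weeks over E18 lay between 50 and 56 of 57 under each rescaling and the pseudocount of 0.1, and was 35 at a 4-fold limit. With a pseudocount of 0.1, 2 entries were called higher at E18 over E14 and 4 lower at 6 months over 3 weeks. At 4-fold, 2 were higher and 0 lower at 6 months over 3 weeks. The median of ratios, which moved the median of all entries in that comparison to 0.12, against -0.31 as deposited, gave 16 higher and 0 lower, with 16 entries highest at 3 weeks and 41 at 6 months. Ribosomal protein scaling gave 11 higher and 1 lower in it, and an equal sum 6 and 1. Counting 1 entry per gene, chosen after seeing the data, left 0 lower. No called difference of a single member changed sign under the pseudocount of 0.1 or the 3 rescalings. The filters on low values left every count within 1.5 times. Levels of TEKT3, TEKT4, DNAH3, DNAH7C, DNAH14 and RSPH4A in each fetal library rest on 6 reads or fewer, so their folds against those stages are loosely bounded.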
